A study of Homo sapiens with 5 samples.

Results

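Lysosomal hydrolases and lysosomal membrane proteins were examined in HaCaT cells, an established line of human keratinocytes that was immortalised spontaneously and can still differentiate. The set held 36 genes, chosen by symbol from 27933 rows of the deposited expression table, and all 36 were found there. RNA of 3 AHNAK knockdown libraries was compared with RNA of 2 control libraries. All 5 came from the same cell line in the same serum-containing medium, and AHNAK, a giant scaffold protein of the cell cortex, was the only gene that the labels name as targeted. The labels give neither the interfering RNAs used nor the time after their delivery, and the design text speaks of a knockout where the sample labels speak of a knockdown. They also do not say whether replicates were separate cultures, and the spread on which p-values rest may then be technical. The study asked what AHNAK does for keratinocyte proliferation and differentiation.

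Lysosomes break down proteins, glycans, sulfated sugars and lipids in an acid lumen. Their soluble enzymes are made in the endoplasmic reticulum, mostly tagged with mannose 6-phosphate and carried to the lysosome by receptors for that tag, while glycosylated membrane proteins such as LAMP1 and LAMP2 line its limiting membrane. Many of these genes carry a short promoter sequence, the CLEAR element, that is bound by the related transcription factors TFEB, TFE3 and MITF. In epidermis, acid lipid hydrolases related to those of the lysosome also make the ceramides of the skin barrier, and inherited loss of the lysosomal protease cathepsin C causes a thickening of palm and sole skin.

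Expression was given in FPKM, fragment numbers divided by transcript length and by the total mapped in that library, so levels of different genes can be set side by side. The read depth of the libraries is unknown. AHNAK itself was at 69.6 to 115.3 FPKM in knockdown libraries and at 204.8 and 242.0 FPKM in controls, so the targeted gene was lower wherever the labels name it as targeted. AHNAK differed by -1.19 on the log2 scale, yet it did not pass the test used below either (limma adjusted p = 0.372). The 8 keratinocyte markers each averaged at least 1 FPKM, with summed levels of 3887 to 5472 FPKM in knockdown libraries and 5788 to 7235 FPKM in controls. Of 6 macrophage markers 0 averaged 1 FPKM (summed 1.19 to 1.54 FPKM in knockdown and 1.00 to 1.30 FPKM in control), and AIF1 and TYROBP were at 0 in all 5 libraries. Of 5 melanocyte markers 1 averaged 1 FPKM (summed 1.44 to 2.09 against 1.94 to 2.09 FPKM), with TYR at 0. Of 6 fibroblast markers 3 did so (summed 6.12 to 10.2 FPKM in knockdown against 3.30 to 5.02 FPKM in control). These summed fibroblast and keratinocyte levels did not overlap between groups, but single markers went both ways. Of the 3 tested fibroblast markers, 2 were higher in knockdown (DCN 1.78 and COL3A1 0.74 on the log2 scale) and COL1A1 was lower (-0.40). Of the 8 keratinocyte markers, 2 were higher (KRT1 0.18, KRT10 0.25) and 6 lower, with KRT6A (-1.01) and KRT14 (-0.70) the farthest from 0. Their part in the results below was not tested. In such bulk RNA, fewer cells of a type and less RNA per cell cannot be told apart.

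The lysosomal genes were abundant. Cathepsin D was the highest, and 7 genes averaged over 100 FPKM: CTSD, PSAP, CTSB, GRN, LAMP1, CTSH and CD63. A further 24 lay between 10 and 100 FPKM and 5 under 10 FPKM. Their levels summed to 3215, 3375 and 3021 FPKM in knockdown replicates 1, 2 and 3, against 2734 and 2874 FPKM in control replicates 1 and 2. The groups did not overlap in this sum, and the ratio of means was 1.14. As a share of all FPKM, however, the same sums made up 0.832%, 0.874% and 0.718% in the knockdown libraries against 0.730% and 0.735% in the controls, and there the groups overlapped. CTSD alone supplied 25.5% to 31.0% of the sum.

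**Figure D1:**
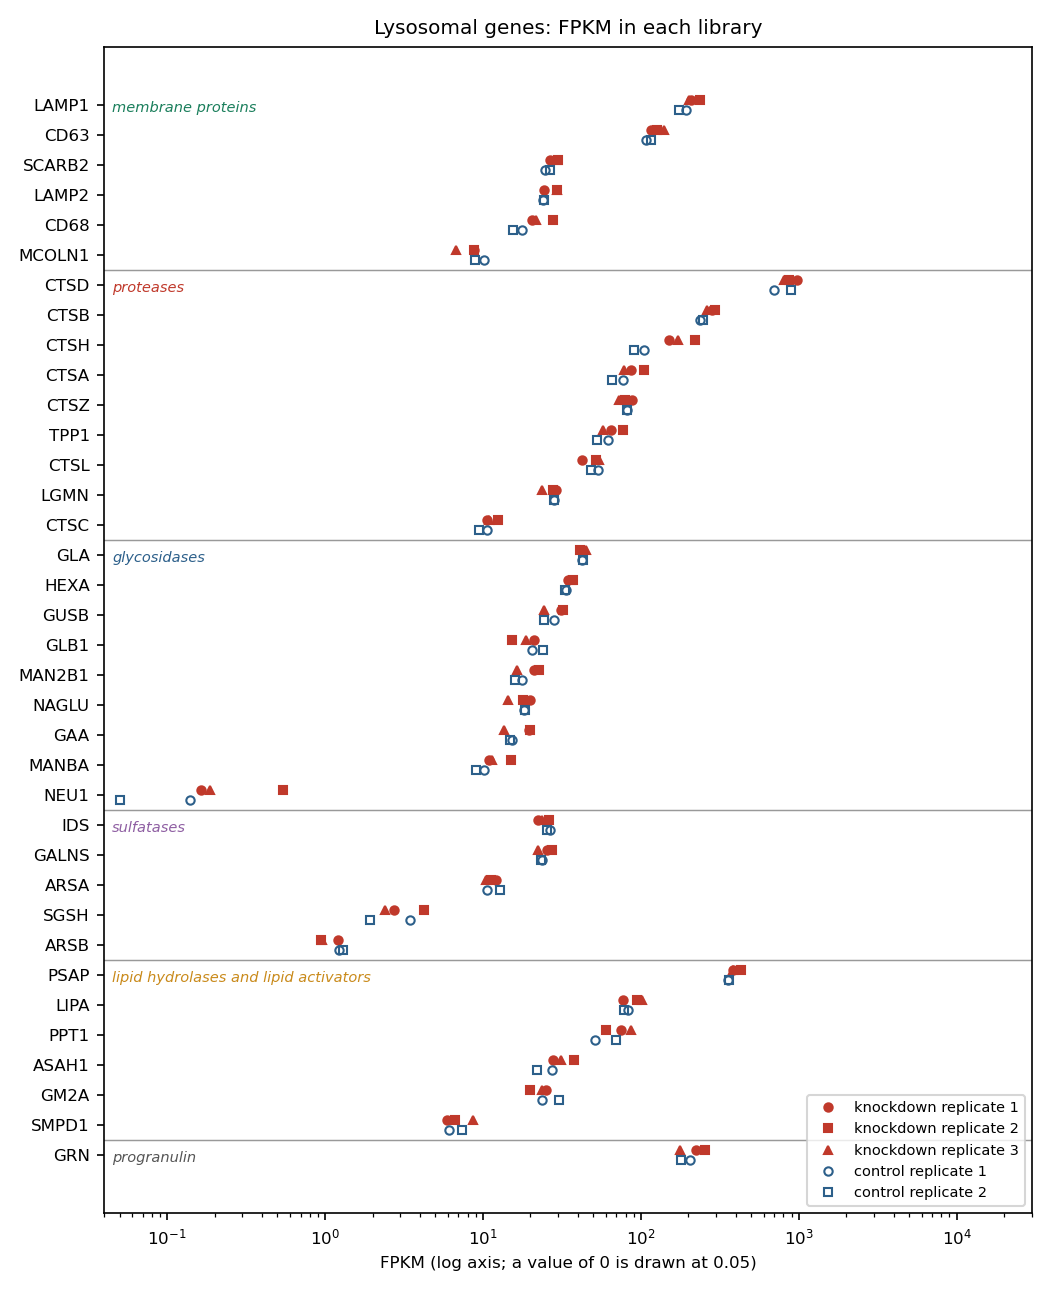
Level of each of the 36 lysosomal genes in every library, in FPKM on a log axis, grouped by role; filled red symbols are the 3 knockdown libraries and open blue symbols the 2 control libraries. Levels span from NEU1, at 0.54 FPKM or less, to CTSD, at 695.9 to 974.5 FPKM, and the knockdown symbols of CTSH, at 150.8 to 221.4 FPKM, all lie right of the control symbols.

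Of the 36 lysosomal genes, 0 passed the test between knockdown and control, which the targeted gene AHNAK did not pass either. Of these genes, 35 averaged at least 1 FPKM and were tested, and NEU1 was not. Every log2 difference below subtracts the control mean from the knockdown mean of log2(FPKM + 0.5). The differences were above 0 for 25 of the 35 genes (71.4%, against 51.3% of 12196 genes tested), with a median of 0.16 against 0.01 over all tested genes. Past a limma adjusted p of 0.05 there were 0 of 35 genes (0% of all tested genes; smallest adjusted p = 0.372). At an unadjusted p under 0.05 there were 2, CTSH and CD68, which is 5.71% of the set against 11.7% of all tested genes. Both were higher in knockdown, where 6.22% of all tested genes were higher and 5.48% lower at that p. CTSH alone remained under that p without knockdown replicate 2, control replicate 1 or control replicate 2 (2.86% of the set, against 6.06%, 5.56% and 4.61% of all genes tested in these fits). Without knockdown replicate 1 it was 3 genes (8.57%, against 17.1%) and without knockdown replicate 3 it was 6 (17.1%, against 14.5%). The groups did not overlap for 12 of the 35 genes (34.3%, against 32.0% of all tested genes), so the total lay near the background. These 12 were divided as 10 higher in knockdown (28.6%, against 16.2%) and 2 lower (5.71%, against 15.8%). After each library was rescaled to the same FPKM sum, 5 of the 35 were higher without overlap and 2 lower. Over all genes tested in that fit, 11.6% were higher without overlap and 19.7% lower. Both directions together were 20.0% of the set, against 31.3% of all genes tested. The median difference of the set was then 0.11, while the median of all genes was at -0.04. The median difference of the set was 0.09 without knockdown replicate 2 and 0.09 without control replicate 2.

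**Figure D2:**
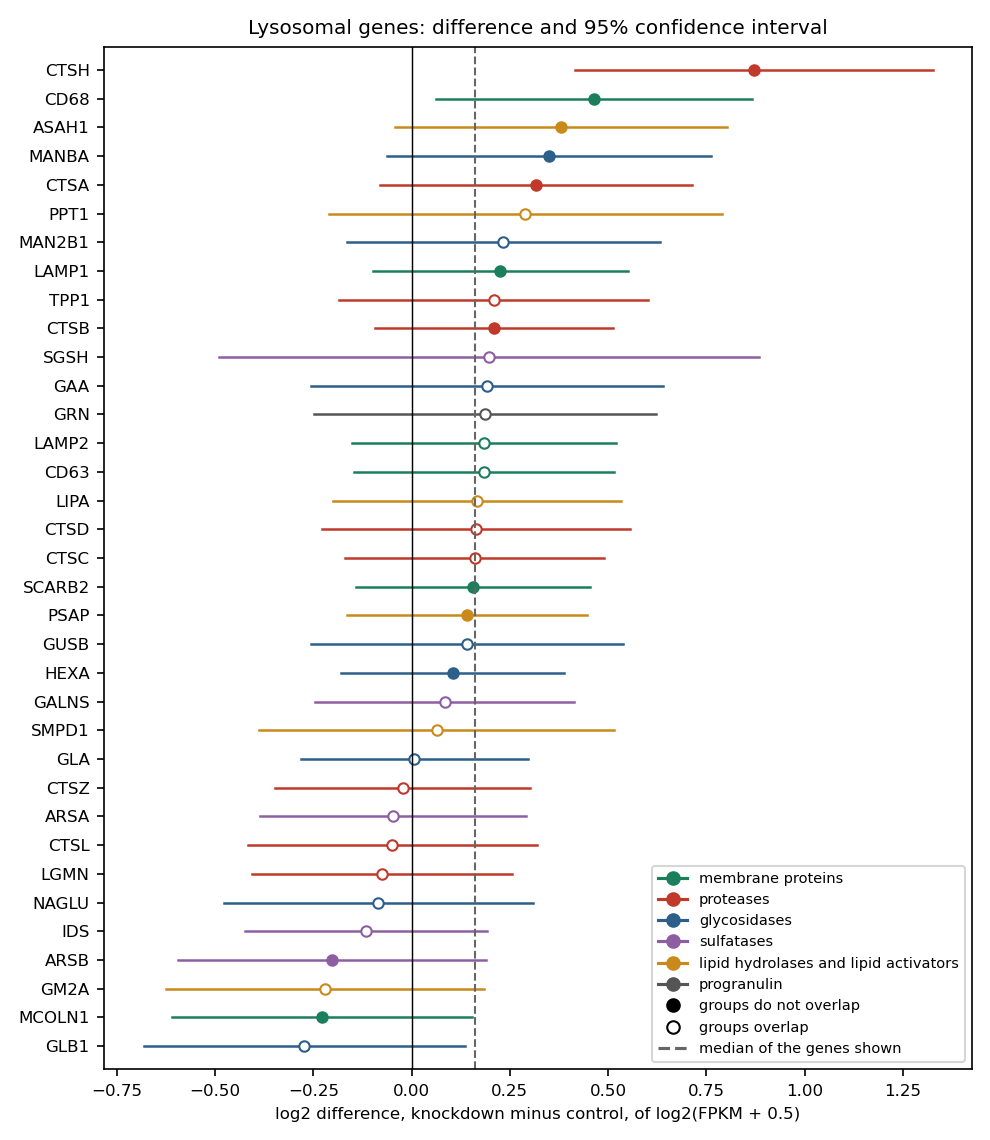
Log2 difference, knockdown minus control, of log2(FPKM + 0.5) for the 35 tested lysosomal genes, with lines for the 95% confidence interval of limma, colours for the role and filled circles where the groups do not overlap. Intervals of CTSH and CD68 exclude 0, those of the other genes include it, and the dashed median lies at 0.16.

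Promoter windows were searched for the CLEAR type of site because TFEB and its relatives act through it. The windows, from RefSeq (GRCh38.p14), run from 250 bases before to 50 bases after a start, and 26 of the 36 genes had one or more of them. The motif TCACGTG, searched on both strands and containing the shorter motif CACGTG, occurred in 8 of these 26 genes (30.8%), against 4.49% of 27305 genes with a window and 3.71% of 35116 windows. The shorter motif occurred in 9 of the 26, those 8 included (34.6%), against 8.77% of genes and 7.26% of windows. Stretches upstream of the start are shown for 4 genes that hold the longer motif, with matches to either motif in capitals, read 5′ to 3′ on the gene's strand. CTSA (chr20:45891273-45891334, plus strand) holds a pair of matches, CTSD (chr11:1763949-1763994, minus strand) a single one, MCOLN1 (chr19:7522563-7522623, plus strand) a pair, and LAMP1 (chr13:113297027-113297236, plus strand) a run of 5 before the start.
CTSA: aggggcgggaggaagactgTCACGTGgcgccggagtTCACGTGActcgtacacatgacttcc
CTSD: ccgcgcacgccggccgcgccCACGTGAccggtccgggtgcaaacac
MCOLN1: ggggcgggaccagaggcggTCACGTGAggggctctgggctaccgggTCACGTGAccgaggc
LAMP1: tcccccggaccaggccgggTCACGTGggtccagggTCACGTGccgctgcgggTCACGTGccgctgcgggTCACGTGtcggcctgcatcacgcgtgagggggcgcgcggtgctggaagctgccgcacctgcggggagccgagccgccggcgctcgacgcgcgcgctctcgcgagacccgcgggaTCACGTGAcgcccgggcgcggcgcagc
These 4 genes differed by 0.32 (CTSA), 0.16 (CTSD), -0.23 (MCOLN1) and 0.23 (LAMP1) on the log2 scale. The 7 tested genes with the longer motif had a median log2 difference of 0.16, with 5 above 0, and the 18 tested genes with a window but without it had a median of 0.16, with 13 above 0. CTSH and CD68, the genes of smallest p, were among the 18. A match only says that the letters are present, and its absence only that they are not in this window.

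Among the 6 membrane proteins, 5 were higher in knockdown and 1 lower, with a median log2 difference of 0.18. CD68, a heavily glycosylated LAMP relative best known from macrophages (chromosome 17, 7579467 to 7582113, plus strand, GRCh38), stood at 20.35, 27.68 and 21.57 FPKM in knockdown replicates 1, 2 and 3, against 17.57 and 15.55 FPKM in control replicates 1 and 2. All 3 knockdown values lay above both controls, and knockdown replicate 2 was the highest. The means were 23.2 ± 3.93 FPKM (SD, n = 3) in knockdown and 16.56 ± 1.43 FPKM (SD, n = 2) in control, a ratio of 1.40. CD68 differed by 0.46 on the log2 scale (SE 0.17, 95% confidence interval 0.06 to 0.87; limma adjusted p = 0.395). The part of macrophage markers in it was not tested; CD14, the highest of the 6, was at 0.778, 1.06 and 0.686 FPKM in knockdown and at 0.724 and 0.569 FPKM in control. Without knockdown replicate 2 the difference was 0.33.

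LAMP1, one of the most abundant proteins of the lysosomal membrane (chromosome 13, 113297241 to 113323672, plus strand), was at 207.2, 235.4 and 202.0 FPKM in knockdown and at 192.6 and 174.3 FPKM in control. The groups did not overlap, and the log2 difference was 0.23 (95% confidence interval -0.10 to 0.55; limma adjusted p = 0.550). LAMP2, its relative with a further role in autophagy, was at 24.22, 29.49 and 29.56 FPKM in knockdown against 23.99 and 24.54 FPKM in control. Knockdown replicate 1 lay between the control values of LAMP2, so the groups overlapped (log2 difference 0.18, and 0.28 without knockdown replicate 1). CD63, a tetraspanin of late endosomes and exosomes, had 115.8, 126.4 and 140.8 FPKM in knockdown and 108.0 and 116.0 FPKM in control. It also overlapped, by knockdown replicate 1 alone, at the same log2 difference of 0.18, which was 0.11 without knockdown replicate 3. SCARB2, the receptor that carries glucocerebrosidase to the lysosome, averaged 28.6 ± 1.59 FPKM (SD, n = 3) in knockdown and 25.6 ± 1.32 FPKM (SD, n = 2) in control without overlap (log2 difference 0.16).

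MCOLN1, the lysosomal calcium channel TRPML1, went the other way. It was at 8.79, 8.77 and 6.80 FPKM in knockdown replicates 1, 2 and 3, against 10.18 and 8.92 FPKM in the controls. The groups did not overlap, although knockdown replicates 1 and 2 lay just under control replicate 2. The log2 difference was -0.23 (95% confidence interval -0.61 to 0.15; limma adjusted p = 0.601), made up of -0.37 within set A and -0.02 within set B, the library sets defined further on. It was -0.11 without knockdown replicate 3 and -0.14 without control replicate 1.

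Of the 9 proteases, 6 were higher in knockdown and 3 lower (median log2 difference 0.16), and CTSH had the largest difference of all 35 tested genes. CTSH, or cathepsin H, is a cysteine protease that trims amino acids from the N-terminus of its substrates (ENSG00000103811.16, chromosome 15, 78921058 to 78949574, minus strand, GRCh38). It stood at 150.8, 221.4 and 171.6 FPKM in knockdown replicates 1, 2 and 3, against 105.5 and 90.24 FPKM in control replicates 1 and 2. Every knockdown library exceeded both controls, and knockdown replicate 2 was the highest. Means were 181.2 ± 36.3 FPKM (SD, n = 3) in knockdown and 97.87 ± 10.8 FPKM (SD, n = 2) in control, a ratio of 1.85. On the log2 scale CTSH differed by 0.87 (SE 0.19, 95% confidence interval 0.42 to 1.33), which missed the threshold after adjustment (limma adjusted p = 0.372). It remained between 0.72 and 0.99 when any 1 library was left out. With limma array weights it was 1.10 with an adjusted p of 0.0340, in a fit where 11.7% of all tested genes passed. Those weights gave knockdown replicate 2, the library of highest CTSH, 3.98 and knockdown replicate 3 0.257.

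CTSA and CTSB were the other proteases without overlap. CTSA, or cathepsin A, is a carboxypeptidase that also protects beta-galactosidase and neuraminidase in a complex. It was at 86.19, 104.3 and 78.15 FPKM in knockdown and at 77.13 and 65.82 FPKM in control, with knockdown replicate 3 just above control replicate 1. Its log2 difference was 0.32 (95% confidence interval -0.08 to 0.71; limma adjusted p = 0.498), and 0.20 without knockdown replicate 2 or control replicate 2. CTSB, or cathepsin B, an abundant cysteine protease, was at 282.1, 296.2 and 261.7 FPKM in knockdown and at 237.6 and 246.3 FPKM in control. The difference of CTSB was 0.21 (95% confidence interval -0.09 to 0.51; limma adjusted p = 0.554), close to equal within set A (0.19) and set B (0.27).

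CTSD, the main aspartic protease of lysosomes (chromosome 11, 1752752 to 1764573, minus strand), had values of 974.5, 873.7 and 807.2 FPKM in knockdown against 695.9 and 890.5 FPKM in control. The controls differed from each other by more than the knockdown libraries did, and the groups overlapped. Its log2 difference was 0.16 (95% confidence interval -0.23 to 0.56), and it was -0.01 without control replicate 1, 0.34 without control replicate 2 and 0.09 without knockdown replicate 1. TPP1, a tripeptidyl peptidase whose loss causes a childhood neuronal ceroid lipofuscinosis, was at 64.83, 76.73 and 57.92 FPKM in knockdown and at 62.12 and 52.45 FPKM in control (log2 difference 0.21). Only knockdown replicate 3 lay between the TPP1 controls, and the difference was 0.10 without knockdown replicate 2, 0.33 without control replicate 1 and 0.09 without control replicate 2. CTSL, or cathepsin L, was at 42.38, 52.19 and 54.16 FPKM in knockdown and at 53.79 and 48.37 FPKM in control. Its values overlapped widely, and the difference of -0.05 (95% confidence interval -0.42 to 0.32) ranged from -0.12 without control replicate 2 to 0.06 without knockdown replicate 1. CTSC, which activates serine proteases of immune cells, differed by 0.16, and CTSZ and LGMN, a carboxypeptidase and an asparaginyl endopeptidase, by -0.02 and -0.07. CTSL has several pseudogenes of its name and LGMN has 1 in GENCODE, which can share their reads.

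The 8 tested glycosidases had 6 genes higher and 2 lower in knockdown (median log2 difference 0.12). Groups did not overlap for 2 of the 8, MANBA and HEXA, against 32.0% of all tested genes. MANBA, the beta-mannosidase of glycoprotein breakdown, was at 10.88, 15.12 and 11.43 FPKM in knockdown and at 10.16 and 9.04 FPKM in control. Knockdown replicate 2 stood apart, and the other knockdown libraries lay closely above control replicate 1. Its log2 difference was 0.35 (95% confidence interval -0.06 to 0.76; limma adjusted p = 0.479), 0.13 within set A, 0.71 within set B and 0.21 without knockdown replicate 2. MAN2B1, the alpha-mannosidase of the same pathway, had 20.98, 22.66 and 16.50 FPKM in knockdown and 17.69 and 16.01 FPKM in control. Knockdown replicate 3 lay between the MAN2B1 controls, and the difference was 0.23, with 0.14 without knockdown replicate 2 and 0.36 without knockdown replicate 3. HEXA, the alpha subunit of beta-hexosaminidase, averaged 35.8 ± 1.30 FPKM (SD, n = 3) in knockdown and 33.2 ± 0.35 FPKM (SD, n = 2) in control.

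GLB1, the beta-galactosidase used as a marker of senescent cells, had the lowest log2 difference of the 35 genes over all 5 libraries. It was at 21.15, 15.39 and 18.69 FPKM in knockdown and at 20.37 and 24.13 FPKM in control. Knockdown replicate 1 exceeded control replicate 1, so the groups overlapped, and knockdown replicate 2 was the lowest. The difference was -0.27 (95% confidence interval -0.68 to 0.14; limma adjusted p = 0.565). Without knockdown replicate 2 or control replicate 2 it was -0.15, and MCOLN1 was then lower, at -0.28 and -0.32. The remaining glycosidases differed by 0.19 (GAA, of glycogen breakdown), 0.14 (GUSB, beta-glucuronidase), -0.08 (NAGLU, of heparan sulfate breakdown) and 0.01 (GLA, alpha-galactosidase A). GLA was the steadiest of them, with a 95% confidence interval of -0.28 to 0.29. GUSB has many pseudogenes that may share its reads.

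NEU1, the lysosomal sialidase, was listed near 0 and was not tested. Its values were 0.164, 0.542 and 0.188 FPKM in knockdown replicates 1, 2 and 3, against 0.141 and 0 FPKM in control replicates 1 and 2. Of 66 other protein-coding genes that start within 500 kb of NEU1 on chromosome 6, 63 (95.5%) averaged under 1 FPKM and 24 (36.4%) were at 0 in every library. On the rest of that chromosome 465 of 937 genes (49.6%) averaged under 1 FPKM and 173 (18.5%) were at 0. This window was chosen after the value of NEU1 had been seen, it also holds the macrophage marker AIF1, and its part in the low value of NEU1 was not tested.

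Of 5 sulfatases, 2 were higher and 3 lower in knockdown (median log2 difference -0.05), the only role whose median lay below 0. ARSB, which removes sulfate from dermatan sulfate, did not overlap, at 1.21, 0.94 and 0.96 FPKM in knockdown and 1.23 and 1.30 FPKM in control (log2 difference -0.20). Knockdown replicate 1 was close to control replicate 1 at this low level. SGSH, the heparan N-sulfatase, varied most within groups, at 2.72, 4.26 and 2.40 FPKM in knockdown and 3.45 and 1.92 FPKM in control. GALNS differed by 0.08, ARSA, the sulfatide sulfatase, by -0.05, and IDS, which starts the breakdown of heparan and dermatan sulfate, by -0.12.

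Of 6 genes of lipid breakdown, 5 were higher in knockdown and 1 lower (median log2 difference 0.15). ASAH1, the acid ceramidase, was at 27.69, 37.68 and 31.39 FPKM in knockdown replicates 1, 2 and 3, against 27.35 and 21.88 FPKM in control replicates 1 and 2. The groups did not overlap, with knockdown replicate 1 just above control replicate 1. Its log2 difference was 0.38 (95% confidence interval -0.04 to 0.80, limma adjusted p = 0.465), with 0.11 within set A and 0.77 within set B. Without control replicate 2 it was 0.22. PSAP, the precursor of the saposins that present lipids to hydrolases, was at 381.1, 427.9 and 382.6 FPKM in knockdown and at 358.2 and 360.7 FPKM in control. The control values of PSAP were nearly equal and all knockdown values exceeded them, at a log2 difference of 0.14 (95% confidence interval -0.16 to 0.45; limma adjusted p = 0.673), and 0.09 without knockdown replicate 2.

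PPT1, a thioesterase that removes palmitate from proteins, was at 75.06, 59.96 and 87.09 FPKM in knockdown and at 51.04 and 70.06 FPKM in control. It overlapped, and its log2 difference was 0.29, with 0.66 within set A and -0.22 within set B. It was 0.06 without control replicate 1, 0.52 without control replicate 2 and 0.16 without knockdown replicate 3. LIPA, the acid lipase of cholesteryl esters, differed by 0.17. LIPA overlaps interferon-induced genes of the IFIT family on the opposite strand in GENCODE, and reads of overlapping genes cannot be told apart here since a strand setting is not given. GM2A, the GM2 ganglioside activator, differed by -0.22 and SMPD1, the acid sphingomyelinase, by 0.06. GM2A, with 2, and IDS, with 1, also have pseudogenes of their name in GENCODE, as CTSL, LGMN and GUSB do. GRN, or progranulin, a secreted and lysosomal precursor cut into granulins, was at 225.0, 255.6 and 178.1 FPKM in knockdown and at 203.8 and 178.6 FPKM in control. The lowest of these 5 values of GRN belonged to knockdown replicate 3 and the highest to knockdown replicate 2, and the difference was 0.19 (95% confidence interval -0.25 to 0.62). It was 0.07 without knockdown replicate 2, 0.33 without knockdown replicate 3, 0.28 without control replicate 1 and 0.09 without control replicate 2.

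Knockdown replicate 2 held the highest value of the 5 libraries for 18 of the 35 tested genes (51.4%, against 23.3% of all tested genes). Knockdown replicate 1 was highest for 4 (11.4%, against 12.1%) and knockdown replicate 3 for 7 (20.0%, against 30.0%). Control replicate 1 was highest for 2 (5.71%, against 19.6%) and control replicate 2 for 4 (11.4%, against 14.9%). The median deviation of the 35 genes from their mean over the 5 libraries was 0.05, 0.12 and -0.03 in knockdown replicates 1, 2 and 3, against -0.06 and -0.07 in control replicates 1 and 2. Over all tested genes these medians lay between -0.004 and 0.008. Knockdown replicate 2 was also the library of lowest AHNAK, at 69.6 FPKM, and the only knockdown library of set B, defined further on. These traits cannot be told apart, and a relation to the AHNAK level was not tested. Transcripts of the 35 genes had a median GC content of 53.3%, against 48.8% over all tested genes. Across the 35 genes, deviations in knockdown replicate 1 followed GC content with a Spearman's rho of 0.53 and those in knockdown replicate 3 with -0.58, and over 11768 tested genes these were 0.61 and -0.55. The rho in the other 3 libraries lay between 0.02 and 0.07 across the 35 genes. These correlations describe genes of the same libraries, which are not independent replicates. Correcting each library for the GC content and length of transcripts gave a median difference of 0.14.

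**Figure D3:**
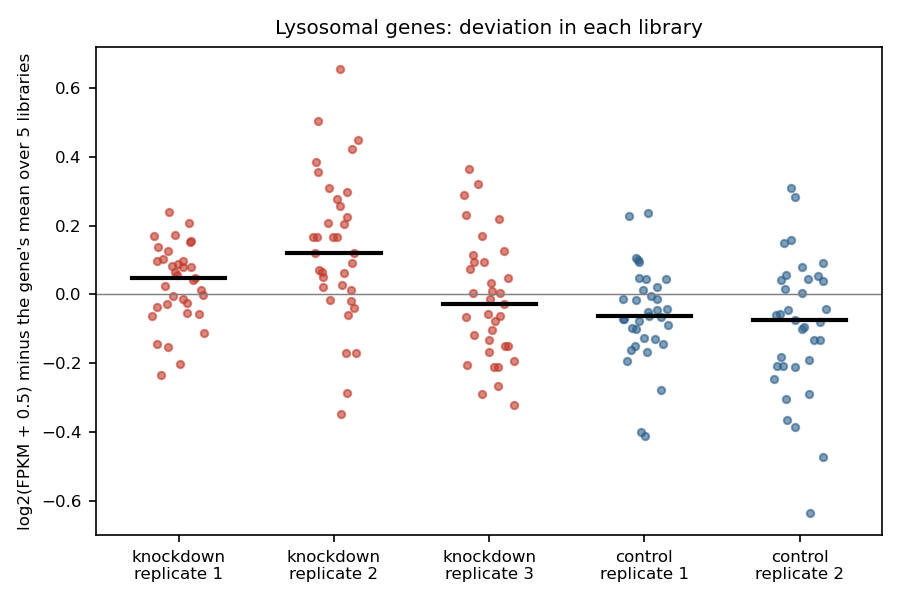
Deviation of log2(FPKM + 0.5) from the gene's own mean over 5 libraries, for the 35 tested lysosomal genes (points) in each library, with black bars for the median. The bar of knockdown replicate 2 is highest, at 0.12, that of knockdown replicate 3 lies at -0.03 and those of the controls at -0.06 and -0.07.

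Low values showed that the libraries fall into 2 sets that share value steps: set A with knockdown replicates 1 and 3 and control replicate 1, and set B with knockdown replicate 2 and control replicate 2. The labels describe no such sets. Within set A the median log2 difference of the 35 genes was 0.07 and within set B it was 0.22, and 23 of the 35 were above 0 in each set (65.7%, against 48.6% and 50.1% of all tested genes). Both sets were above 0 for 17 genes (48.6%, against 27.2%) and below 0 for 6 (17.1%, against 28.5%). For CTSH set A gave 0.61 and set B 1.29, and for CD68 they gave 0.25 and 0.81. MAN2B1, CTSA and LAMP1 had 0.07, 0.09 and 0.09 in set A and 0.49, 0.66 and 0.43 in set B. TPP1 and GRN were at -0.02 and -0.03 in set A but at 0.54 and 0.52 in set B. Differences in set B rest on 1 library per group, and the sets' difference was not tested.

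**Figure D4:**
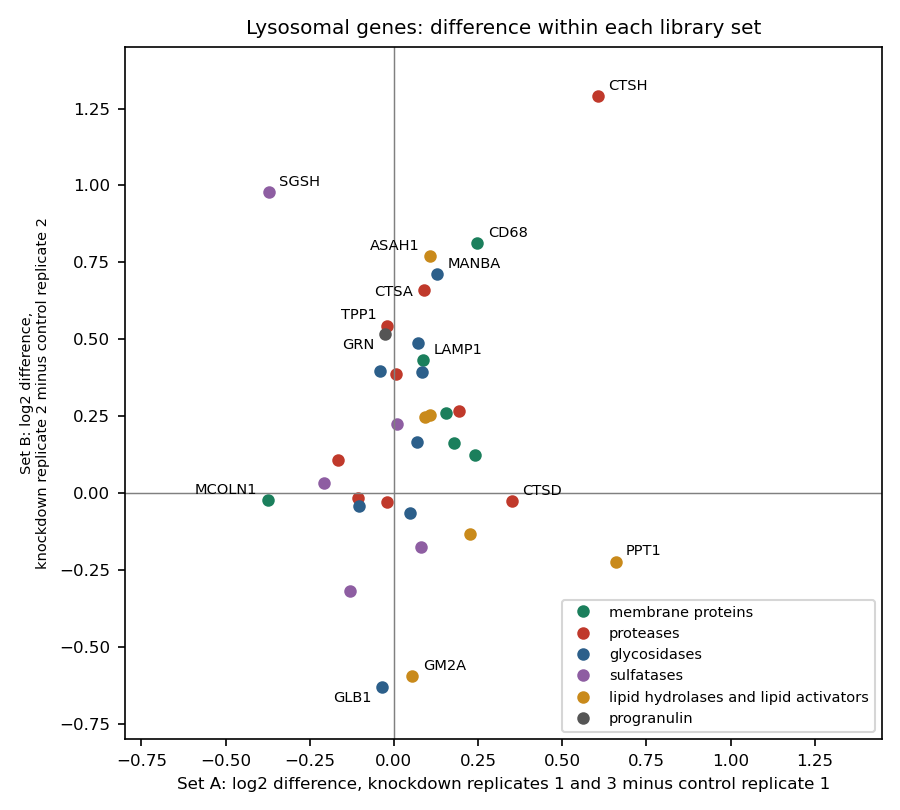
Log2 difference within set A (knockdown replicates 1 and 3 minus control replicate 1, horizontal) and within set B (knockdown replicate 2 minus control replicate 2, vertical) for the 35 tested lysosomal genes, coloured by role. CTSH lies farthest up, at 0.61 and 1.29, 17 genes lie above 0 on both axes, and PPT1 lies far right but below 0 in set B.

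Other genes of the pathway were counted in lists that share no gene with the set. Of 32 tested further hydrolases, 17 were higher and 15 lower in knockdown (median log2 difference 0.07). At an unadjusted p under 0.05, 4 of the 32 were higher and 3 lower, against 6.22% and 5.48% of all tested genes. NAAA, an acid amidase of N-acylethanolamines, was at 7.95, 9.04 and 6.78 FPKM in knockdown and at 5.15 and 4.13 FPKM in control (0.71). SCPEP1, a serine carboxypeptidase, averaged 62.6 ± 10.2 FPKM (SD, n = 3) in knockdown and 40.1 ± 3.32 FPKM (SD, n = 2) in control (0.63). GALC, the galactosylceramidase, was lower in every knockdown library, with means of 1.19 ± 0.25 FPKM (SD, n = 3) in knockdown and 2.05 ± 0.11 FPKM (SD, n = 2) in control (-0.61). Neither these nor any other listed gene passed (limma adjusted p of 0.377 or more).

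Of 22 further membrane proteins and transporters, 14 were higher and 8 lower (median 0.11). At an unadjusted p under 0.05 there were 2 in each direction, against 6.22% of all tested genes higher and 5.48% lower. CD164, a sialomucin, averaged 40.5 ± 5.67 FPKM (SD, n = 3) in knockdown and 26.4 ± 0.01 FPKM (SD, n = 2) in control (0.60). SLC36A1, an amino acid exporter, and PIP4P1, a membrane protein that positions lysosomes, were lower in every knockdown library (-0.37 and -0.33). The V-ATPase, the pump that acidifies lysosomes, had 11 of 17 subunits higher (median 0.06). Of these 17, 0 had an unadjusted p under 0.05, against 11.7% of all tested genes, with ATP6V1B2 at 0.27, ATP6V0E2 at -0.37 and ATP6V0B at -0.17. Sorting genes, which include the mannose 6-phosphate receptors, had 10 of 24 higher and 14 lower (median -0.03), and SORL1 was at -0.26, NAGPA at -0.46 and VPS18 at -0.30. Cystatins, which inhibit cathepsins, had 1 of 3 higher (CSTA 0.23) and 2 lower (CST3 -0.23, CSTB -0.06).

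The transcription factors of the pathway differed by less than the spread between replicates. TFEB averaged 10.3 ± 1.11 FPKM (SD, n = 3) in knockdown and 10.3 ± 1.71 FPKM (SD, n = 2) in control, TFE3 14.3 ± 1.65 and 15.2 ± 1.01 FPKM, and MITF 1.25 ± 0.24 and 1.36 ± 0.35 FPKM, with log2 differences of 0.01, -0.09 and -0.08. Their list, with the nutrient-sensing complexes of the lysosomal surface, had 9 of 19 genes higher (median -0.002). LAMTOR4, a subunit of the Ragulator scaffold, was at 0.31, and MTOR and its partner RPTOR at -0.53 and -0.45. GPNMB, a glycoprotein that MITF and its relatives can switch on, was at 54.6, 122.8 and 62.2 FPKM in knockdown and at 42.8 and 7.13 FPKM in control. The log2 difference of GPNMB was 2.05 and did not pass (limma adjusted p = 0.394). It was 0.44 within set A and 4.01 within set B, which holds only knockdown replicate 2 and control replicate 2. Autophagy genes had 16 of 22 higher and 6 lower (median 0.09). At an unadjusted p under 0.05, 3 of the 22 were higher, against 6.22% of all tested genes: WIPI2 (0.40), GABARAP (0.47) and SQSTM1 (0.44). SQSTM1, the cargo receptor p62, stood at 223.5, 288.4 and 221.4 FPKM in knockdown, against 192.9 and 166.5 FPKM in control. All 3 genes were without overlap, while 16.2% of all tested genes were higher without overlap. Each of the 3 had a limma adjusted p of 0.387 or more.

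**Figure D5:**
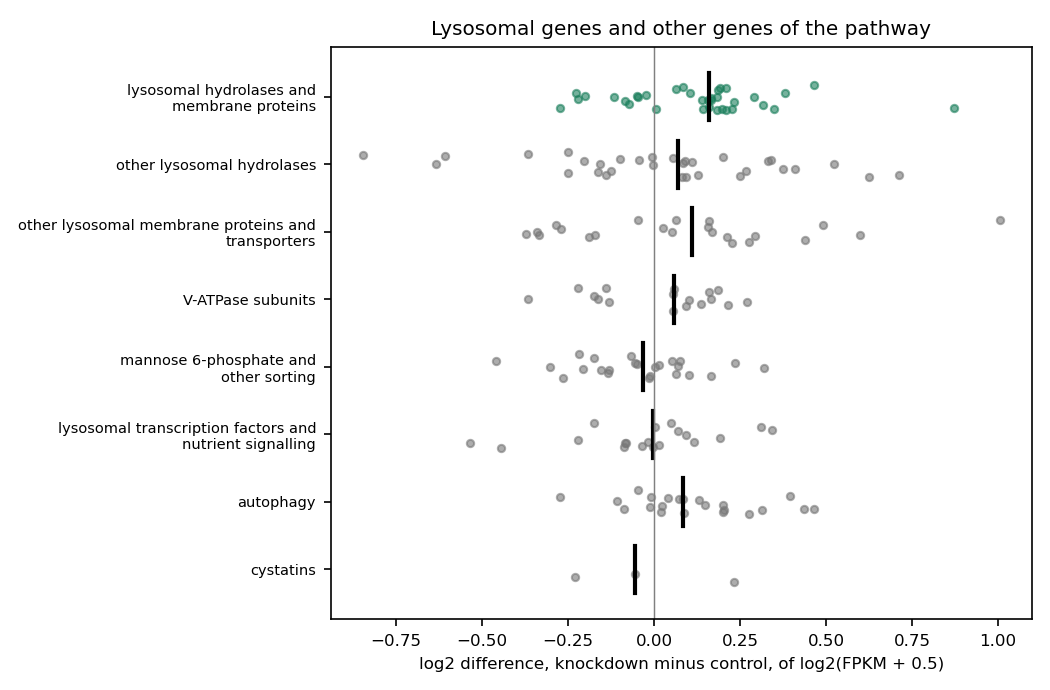
Log2 difference, knockdown minus control, of log2(FPKM + 0.5) for each tested gene of the set (top row) and of the other lists of the pathway, with black bars for the list medians. The medians run from -0.06 for cystatins to 0.16 for the hydrolases and membrane proteins of the set, and the spread of genes within each list exceeds the distance between the medians.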

How the data were processed

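Total RNA was sequenced in 3 knockdown and 2 control libraries. The authors deposited 1 table of FPKM values, a column for each library. The submitters' processing notes name the aligner HISAT2 (2.0.1) and the assembler StringTie (2.0.6), and the builds GRCh38 and mm9 without a role. For annotation and strand setting, nothing is given in the sources used here, and FPKM carry no read totals.

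Values were analysed as log2(FPKM + 0.5) for 12196 genes averaging at least 1 FPKM, with limma 3.58.1 in R 4.3.3 (intensity trend, no covariate), two-sided, Benjamini-Hochberg adjusted over all tested genes at 0.05. A log2 difference on this scale understates changes of low genes. An exact permutation of 2 against 3 libraries could not go below 0.1. Library sets were found from ratios of values under 0.3 FPKM. Gene models came from GENCODE release 29 (GRCh38), which 96.5% of tested genes matched.

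The members and lists were chosen with earlier results of these data known. By rule, library values are given for the 12 members of smallest p and 9 fixed ones, with 3 genes of each other list; values of NEU1, ARSB and SGSH were added after being seen. Alternatives covered pseudocounts, filters, scalings, variance models, weights, a replicate block, a set term, a GC content and length correction, and leaving out each library.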

Additional observations from a re-analysis of the deposited data

How the results depend on the processing

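The set kept 0 members past an adjusted p of 0.05 in every fit except that with limma array weights, where 4 passed (CTSH, CD68, MANBA and CTSA; 11.4%, against 11.7% of all tested genes) and 17 had an unadjusted p under 0.05 (48.6%, against 35.1%). That last count was 2 as reported (5.71%, against 11.7%), 1 with equal FPKM sums (2.86%, against 10.9%), 6 after correction for GC content and length (17.1%, against 18.2%), and 1 to 6 when a library was left out (2.86% to 17.1%, against 4.61% to 17.1% of all genes). Genes without overlap numbered 12 as reported, 7 with equal FPKM sums (20.0%, against 31.3%), and 14 to 20 when a library was left out (40.0% to 57.1%, against 36.1% to 53.1%), which by construction makes overlap rarer. The median log2 difference was 0.090 to 0.171 with a library left out and above 0 in every other fit. Of 306 fits of 18 named members, 301 kept their sign, but this count says little. Other filters, no trend and the robust variance model leave each difference unchanged by construction, and 12 of the named members were picked for small p. Over all 35 tested members, 29 kept their sign without knockdown replicate 3, 31 without control replicate 1 and 33 without control replicate 2. Without knockdown replicate 1 or 2 it was 34. CTSD turned to -0.0081 with quantile normalization, and CTSL to 0.0025 with array weights. With a library left out, CTSD ranged from -0.013 (without control replicate 1) to 0.343 and CTSL from -0.125 to 0.0592 (above 0 without knockdown replicate 1 or control replicate 1). The cause was not tested. With the replicate number as a block, knockdown replicate 3 has no control of its number, so the differences equal those without that library. The median was then 0.16, and 2 members had an unadjusted p under 0.05 (5.71%, against 8.01%). The labels do not say that a number marks a shared culture. Deviations of same-numbered libraries correlated at -0.06 and -0.58, but those of the 2 controls mirror each other by construction, so these values say little about pairing. Depth is unknown, so what limits low members such as ARSB and NEU1 cannot be given in reads.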

Other observations

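BAG6 and DDX39B, genes of the NEU1 neighbourhood on chromosome 6 that are used by nearly every cell type, were also listed near 0. BAG6 averaged 0.25 ± 0.05 FPKM (SD, n = 3) in knockdown and 0.22 ± 0.06 FPKM (SD, n = 2) in control, and DDX39B 0.02 ± 0.01 FPKM in knockdown and 0.03 ± 0.01 FPKM in control. Both were picked after their values had been seen.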
